A study of Mus musculus with 6 samples.

Results

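The genes described here encode enzymes that reduce, oxidise or hydroxylate steroids: the steroid 5α-reductase family, 4 hydroxysteroid 17β-dehydrogenases, the 3α-hydroxysteroid dehydrogenase Akr1c14 and the oxysterol hydroxylase Cyp7b1. They were chosen by name, 9 genes in all. Of these, 7 could be followed through an array probe set whose only gene symbol was theirs, out of 19938 genes on the array, and each of the 7 had 1 such probe set. Srd5a1 and Srd5a2, the classical testosterone 5α-reductases, were not analysed here, nor was the transgene.

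The samples were whole dissected prostates of 3 AR3 transgenic mice and 3 wild-type littermates, all 4 weeks old, with 1 array per mouse. The sources used here do not give the promoter that drives the transgene or the number of founder lines.

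In the prostate, 5α-reductases turn testosterone into the more potent androgen dihydrotestosterone. Reductive hydroxysteroid dehydrogenases make active androgens from weaker precursors, and oxidative ones and 3α-hydroxysteroid dehydrogenases inactivate them. Several enzymes named for steroids have other main substrates: Srd5a3 reduces polyprenol to dolichol, the lipid carrier of N-glycans, Hsd17b4 works in peroxisomal β-oxidation and Hsd17b12 in the elongation of very long chain fatty acids. Cyp7b1 adds a 7α-hydroxyl group to oxysterols and to some androgens.

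The probasin gene Pbsn, a defining product of the mouse prostate, had intensities of 8325, 7981 and 7927 in transgenic mice 1, 2 and 3, against 9066, 9205 and 9758 in wild-type mice 1, 2 and 3, so a defining marker of the labelled tissue was bright on every array. The arrays had median intensities of 94.5 to 110.8. In place of detection calls, the 95th percentile of 1035 olfactory receptor probe sets, which lay between 66.9 and 91.9 on the 6 arrays, served as a scale of background. The seminal vesicle gene Svs5 stood at 344.8, 15.5 and 2861 in transgenic mice 1, 2 and 3, against 1020, 12.9 and 17.9 in wild-type mice 1, 2 and 3. The 3 arrays with high Svs5 were thus transgenic mice 1 and 3 and wild-type mouse 1. Pate4, another of 7 seminal vesicle markers, had 1782, 1203 and 3026.5 in transgenic mice 1, 2 and 3. In wild-type mice 1, 2 and 3 it had 941.9, 25.25 and 36.7, so its genotypes did not overlap. By the mean log2 level of the 7 markers the genotypes overlapped, and 1 marker passed the test described below, as lower. Seminal vesicle transcripts varied within both genotypes, and not alike from gene to gene. In whole tissue, fewer cells of a type and less RNA per cell cannot be told apart.

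None of the 7 enzymes passed the test of a difference between transgenic and wild-type prostates at an adjusted p of 0.05 (limma, over all 28944 probe sets tested), against 1.64% of all genes. At an unadjusted p under 0.05 there was 1, Hsd17b11, against 12.2% of all genes. All transgenic mice were above all wild-type mice for Hsd17b11 and Akr1c14, and the genotypes overlapped for the other 5. That is 2 of 7, against 19.1% of all genes with no overlap in either direction. The median size of change of the 7, in either direction, was 0.10 on the log2 scale, against 0.09 over all genes. Transgenic minus wild-type changes were positive for 6 of the 7. With quantile normalization 5 were positive and with median centring of the arrays 4. Over all genes the shares positive were 53.9%, 49.3% and 42.5% in the same order. Changes are differences of mean log2(intensity + 16), which understate those of dim genes.

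Upstream sequences are shown for Hsd17b11 and Akr1c14, the 2 enzymes whose genotypes did not overlap, neither of which passed the test. They are shown because steroid receptors act by binding DNA. Sequence beyond the 250 bases given was not searched, and binding was not tested. Each line gives the 250 bases before the annotated start in RefSeq (build GRCm38.p6), read 5′ to 3′ on the gene's strand. The Hsd17b11 sequence is chr5:104021797-104022046 on the minus strand, and that of Akr1c14 is chr13:4059341-4059590 on the plus strand. Capitals mark CCAAT boxes (CCAAT) and GC boxes (GGGCGG) on either strand.
Hsd17b11: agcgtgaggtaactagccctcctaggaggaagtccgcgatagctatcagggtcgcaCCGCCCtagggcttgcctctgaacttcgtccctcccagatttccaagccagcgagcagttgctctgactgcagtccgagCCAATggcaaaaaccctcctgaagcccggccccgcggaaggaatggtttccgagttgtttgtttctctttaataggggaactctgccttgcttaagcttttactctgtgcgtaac
Akr1c14: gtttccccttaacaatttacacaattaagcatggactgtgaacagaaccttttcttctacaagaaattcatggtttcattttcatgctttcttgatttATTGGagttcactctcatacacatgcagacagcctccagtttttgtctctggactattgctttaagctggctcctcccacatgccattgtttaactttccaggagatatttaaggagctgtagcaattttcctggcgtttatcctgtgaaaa
Promoters of 4 of the 7 enzymes were matched by symbol, those of Srd5a3, Hsd17b11, Hsd17b12 and Akr1c14. In these 4 windows the steroid receptor half-site AGAACA, its inverted repeat with a spacer of 3 bases and the TATA box TATAAA were searched on both strands and had 0 matches. Over all 32851 promoter windows of the same length, 16.1% held the half-site, 0.00913% the inverted repeat and 12.4% the TATA box. The sequence of Hsd17b11 held 1 CCAAT box and 1 GC box, and that of Akr1c14 held 1 CCAAT box and no GC box. Those motifs occur in 33.8% and 32.7% of all windows, and the marked matches did not overlap.

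Srd5a3, the polyprenol reductase of the 5α-reductase family, had intensities of 257.3, 252.3 and 255.2 in transgenic mice 1, 2 and 3, against 266.3, 221.8 and 224.6 in wild-type mice 1, 2 and 3. The 3 transgenic mice lay close together, and wild-type mouse 1 lay above all of them while the other wild-type mice lay below, so the genotypes overlapped. The fitted log2 change of 0.10 ± 0.09 (SE) had a 95% interval from -0.11 to 0.31 (adjusted p 0.71). The interval bounds a rise at 1.24 times on the scale of intensity + 16.

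Hsd17b2 oxidises testosterone to androstenedione and estradiol to estrone. It had 37.4, 46.2 and 34.4 in transgenic mice, against 36.6, 36.5 and 48.3 in wild-type mice, in the order of mouse number as in all value lists below. All 6 values lay under the background scale of the same array. Its log2 change, -0.03 ± 0.12 (adjusted p 0.95), had a 95% interval from -0.30 to 0.25, the widest among the 7 enzymes. Its sign turned in 3 of 14 other settings, and a level this dim limits what its change can show.

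Hsd17b4, the peroxisomal multifunctional enzyme that also oxidises estradiol, had 791.4, 770.0 and 836.1 in transgenic mice, against 756.0, 789.9 and 687.5 in wild-type mice. The highest value was that of a transgenic mouse and the lowest that of a wild-type mouse, with wild-type mouse 2 between 2 of the transgenic values. With a log2 change of 0.10 ± 0.08, its 95% interval ran from -0.09 to 0.29 (adjusted p 0.68).

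Hsd17b11 is a dehydrogenase of lipid droplets that, in humans, oxidises the androgen metabolite androstanediol. It had 692.2, 718.6 and 720.9 in transgenic mice, against 658.0, 590.7 and 562.6 in wild-type mice. Every transgenic value was above every wild-type value, and the gap between the nearest mice was smaller than the range among the wild-type mice. Means were 710.6 ± 15.9 in transgenic and 603.8 ± 49.0 in wild-type prostates (SD, n = 3 each). The log2 change was 0.23 ± 0.08 (adjusted p 0.32), and its 95% interval, before adjustment for the number of genes, ran from 0.04 to 0.43. Over 15 other settings the change lay between 0.18 and 0.29 and the adjusted p between 0.070 and 0.68, so it was not called in any of them.

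Hsd17b12, the ketoacyl-CoA reductase of fatty acid elongation, had 466.3, 415.1 and 464.5 in transgenic mice, against 455.4, 408.4 and 455.4 in wild-type mice. Mouse 2 had the lowest value in both genotypes, and the genotypes covered nearly the same range. Its log2 change of 0.03 ± 0.09 had a 95% interval from -0.17 to 0.23 (adjusted p 0.93). The sign turned with median centring.

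Akr1c14, the mouse 3α-hydroxysteroid dehydrogenase, which interconverts dihydrotestosterone and its 3α-diol, had 31.6, 31.8 and 34.5 in transgenic mice, against 28.2, 29.1 and 29.8 in wild-type mice. The genotypes did not overlap, but all 6 values lay under the background scale of their arrays. On the log2 scale the change was 0.11 ± 0.07, with a 95% interval from -0.06 to 0.27 (adjusted p 0.59). It lies in a cluster of closely related Akr1c genes, next to Akr1c18 in the RefSeq gene order. Signal that its relatives may share was not separated, since no probe sequences were used.

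Cyp7b1 had 98.4, 100.5 and 103.5 in transgenic mice, against 87.3, 104.5 and 102.7 in wild-type mice. All 6 values were above the background scale of the same array, by a small margin. Wild-type mouse 1 was lowest and wild-type mouse 2 highest, with the transgenic mice between them. The fitted log2 change of 0.04 ± 0.09 had a 95% interval from -0.16 to 0.24 (adjusted p 0.91). Its sign turned with quantile normalization and with median centring.

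**Figure D1:**
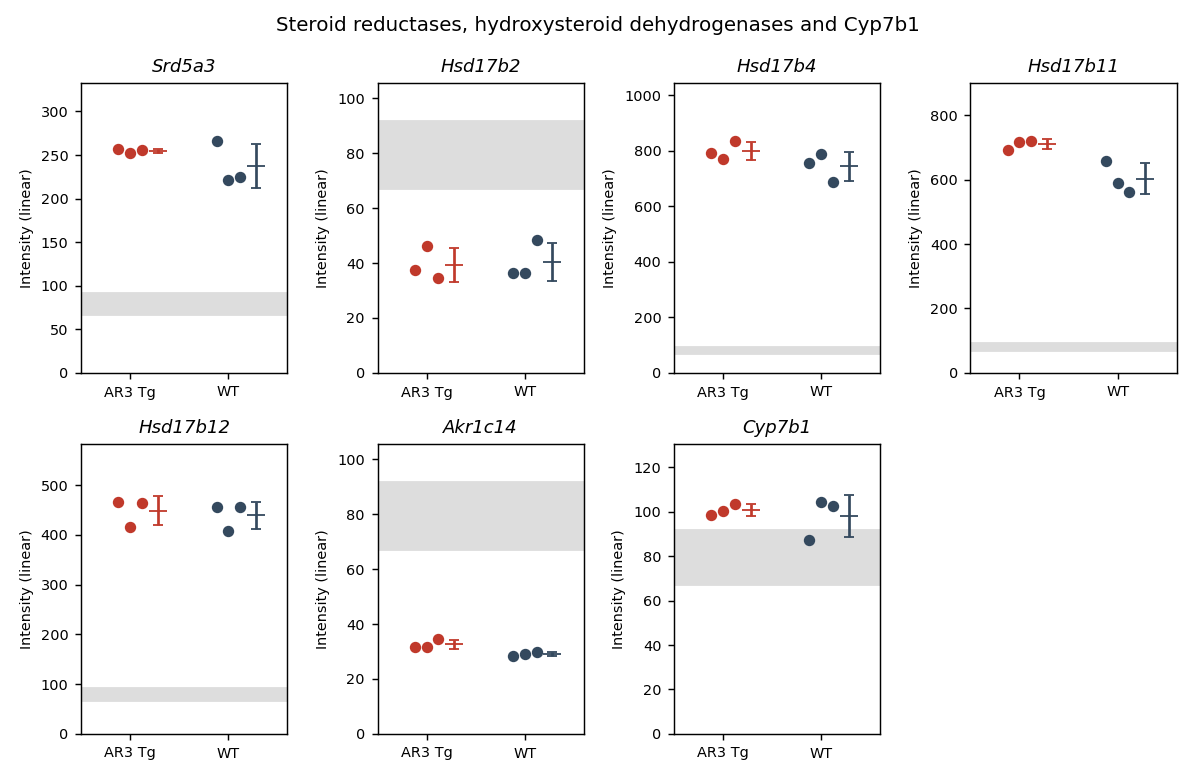
Linear array intensity of the 7 enzymes in 3 AR3 transgenic (AR3 Tg, red) and 3 wild-type (WT, dark) prostates, 1 point per mouse in the order of mouse number, with mean and SD beside the points and the range of the background scale (66.9 to 91.9) in grey. Genotypes were apart for Hsd17b11 and Akr1c14, and Hsd17b2 and Akr1c14 lay under the grey band.

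**Figure D2:**
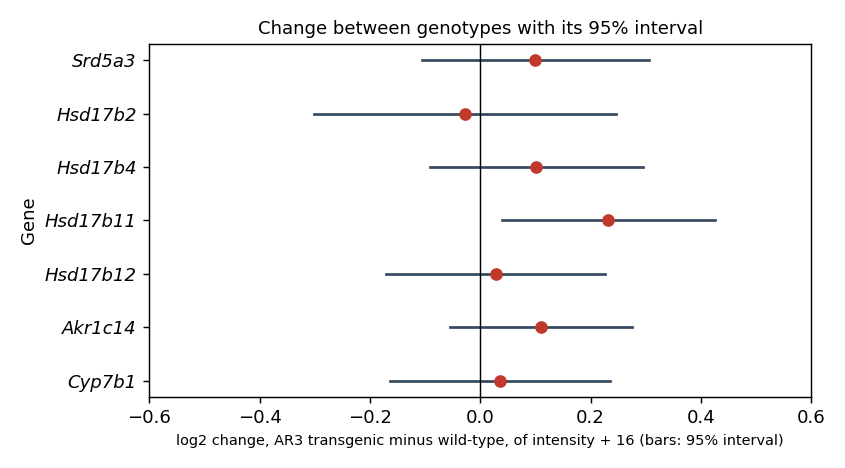
Log2 change of intensity + 16, transgenic minus wild-type, of the 7 enzymes (points) with the 95% interval of the limma fit (bars). The interval of Hsd17b11, from 0.04 to 0.43, was the one that left out 0.

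The widest reach of the 7 intervals was a rise of 1.34 times for Hsd17b11 and a fall to 0.812 times for Hsd17b2, both on the scale of intensity + 16. The intervals are not adjusted for the number of genes, and a p above the threshold does not show equal levels.

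Markers of other cells were set beside Hsd17b11, the enzyme with the smallest p. The mean log2 level of 9 fibroblast genes was 8.51, 8.55 and 9.08 in transgenic mice, against 8.68, 8.05 and 7.91 in wild-type mice. Wild-type mouse 1 was the highest and mouse 3 the lowest of its genotype, as for Hsd17b11. That of 9 luminal epithelial genes was 10.99, 11.03 and 11.02 in transgenic mice, against 10.93, 10.91 and 10.87 in wild-type mice, with the wild-type mice in that order too. Summed intensities were 5582 to 8033 in transgenic and 4211 to 5974 in wild-type mice for the fibroblast genes, and 20687 to 21137 and 18558 to 20054 for the luminal genes. No gene of either list was called, and none had a mean under the background scale.

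Of 14 marker lists, 4 lay higher in all transgenic than in all wild-type mice by their mean log2 level, 1 lay lower and 9 overlapped. Besides the luminal list, those higher were the endothelial, macrophage, and vas deferens and epididymis lists. The 6 endothelial genes had mean log2 levels of 7.15, 7.19 and 7.20 in transgenic mice, against 7.04, 6.93 and 6.69 in wild-type mice, with summed intensities of 775.7 to 818.5 and 539.5 to 717.2. The wild-type mice stood in the order of Hsd17b11 here too, and 1 of the 6 genes was called higher. The 8 macrophage genes had 7.19, 7.25 and 7.39 in transgenic mice, against 7.07, 6.65 and 6.70 in wild-type mice, with summed intensities of 1162 to 1334 and 766.7 to 1020, and 1 was called higher. The 9 vas deferens and epididymis genes had 6.31, 6.32 and 6.28 in transgenic mice, against 5.84, 5.96 and 6.04 in wild-type mice, with 2 called higher and 6 under the background scale. The 8 prostate secretory genes lay lower, at 11.93, 11.82 and 11.74 in transgenic mice, against 12.31, 12.42 and 12.50 in wild-type mice, with summed intensities of 45073 to 49320 and 57263 to 62672, and 4 were called lower. Other lists ran the reverse way, with wild-type mouse 1 lowest and wild-type mouse 3 highest. They were the prostate secretory, vas deferens and epididymis, urothelial, adipocyte and neuroendocrine lists. The wild-type arrays stood in that order as a whole too. Their median intensities were 94.5, 103.8 and 110.8 for mice 1, 2 and 3, and their background scales 66.9, 77.4 and 91.9. Means were under the background scale for 3 of 6 adipocyte and 2 of 4 neuroendocrine genes. Array level and cell content were not separated for these lists. The part of any marker list in the values of Hsd17b11, Cyp39a1 or Acox3 was not tested.

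The genes most like Hsd17b11 over the 6 arrays, among 9969 genes at or above the median level, were the thioredoxin domain gene Txndc16, the importin Ipo11 and the serine protease inhibitor Spint2, with Pearson r of 0.997, 0.996 and 0.995 on log2 intensity. Spint2 had 4934, 5140 and 5205 in transgenic mice, against 4838, 4397 and 4160 in wild-type mice. The 6 arrays share the genotype difference and the spread of the wild-type mice, so such values describe these arrays.

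The rest of the pathways was followed in 9 lists of genes whose products act beside the 7 enzymes, 126 genes of which 115 were measured. Of the 115, 1 was higher and 1 lower in transgenic prostates, against 1.18% and 0.456% of all genes. The median log2 change of the 115 was 0.04, against 0.01 over all genes. The genotypes did not overlap for 25 of the 115 that were higher and 16 that were lower, against 10.5% and 8.61% of all genes. Together that is 41 of the 115, against 19.1% of all genes. At an unadjusted p under 0.05 (limma) there were 26 of the 115, 17 higher and 9 lower, against 12.2% of all genes.

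The gene that rose was Cyp39a1, the hydroxylase that adds a 7α-hydroxyl group to 24-hydroxycholesterol, as Cyp7b1 does to other oxysterols. It had 324.4, 329.8 and 347.0 in transgenic mice, against 201.9, 175.3 and 208.8 in wild-type mice. The genotypes stood far apart compared with the spread within either. Cyp39a1 rose by 0.73 ± 0.09 on the log2 scale (limma, adjusted p 0.0058). The call held without any 1 array, and was lost without both wild-type mouse 1 and transgenic mouse 3, where the change was 0.73 and the adjusted p 0.080. Whether the change of Cyp39a1 differs from that of Cyp7b1 was not tested.

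Other genes of oxysterol metabolism were not called, among them 3 singled out after their values were seen. Cyp27a1, the mitochondrial sterol 27-hydroxylase that makes a substrate of Cyp7b1, had 280.0, 263.5 and 261.1 in transgenic mice, against 193.8, 215.4 and 198.4 in wild-type mice. Its genotypes did not overlap, and the log2 change was 0.38 ± 0.08 (adjusted p 0.075). It was called in 4 of 15 other settings. Ch25h, the cholesterol 25-hydroxylase that makes another, had a log2 change of 0.28 ± 0.09 (adjusted p 0.29) at intensities under the background scale. Cyp51, the lanosterol demethylase of cholesterol synthesis, had -0.38 ± 0.10 (adjusted p 0.15). In the list of 8 measured oxysterol and bile acid genes, 1 was higher, none lower and 7 not called.

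Of the 15 measured genes of peroxisomal β-oxidation, the pathway of Hsd17b4, the 1 called was Acox3, a peroxisomal acyl-CoA oxidase, which was lower. It had 311.6, 324.2 and 330.9 in transgenic mice, against 417.5, 449.6 and 422.7 in wild-type mice. All transgenic values lay below all wild-type values. Acox3 fell, with a log2 change of -0.40 ± 0.07 (limma, adjusted p 0.0496). Without any 1 array the call was lost, at an adjusted p between 0.059 and 0.21. Acox3 was called in 6 of 15 other settings, those fits included.

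Of the 13 measured genes of very long chain fatty acid elongation, the pathway of Hsd17b12, none was called. The elongase Elovl5 came nearest, with 1029, 1039 and 1106 in transgenic mice, against 838.8, 796.3 and 807.2 in wild-type mice. Its log2 change was 0.37 ± 0.07 (adjusted p 0.066), and it was called in 4 of 15 other settings. Hacd4, a 3-hydroxyacyl-CoA dehydratase of the same cycle, had 0.33 ± 0.08 (adjusted p 0.14).

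**Figure D3:**
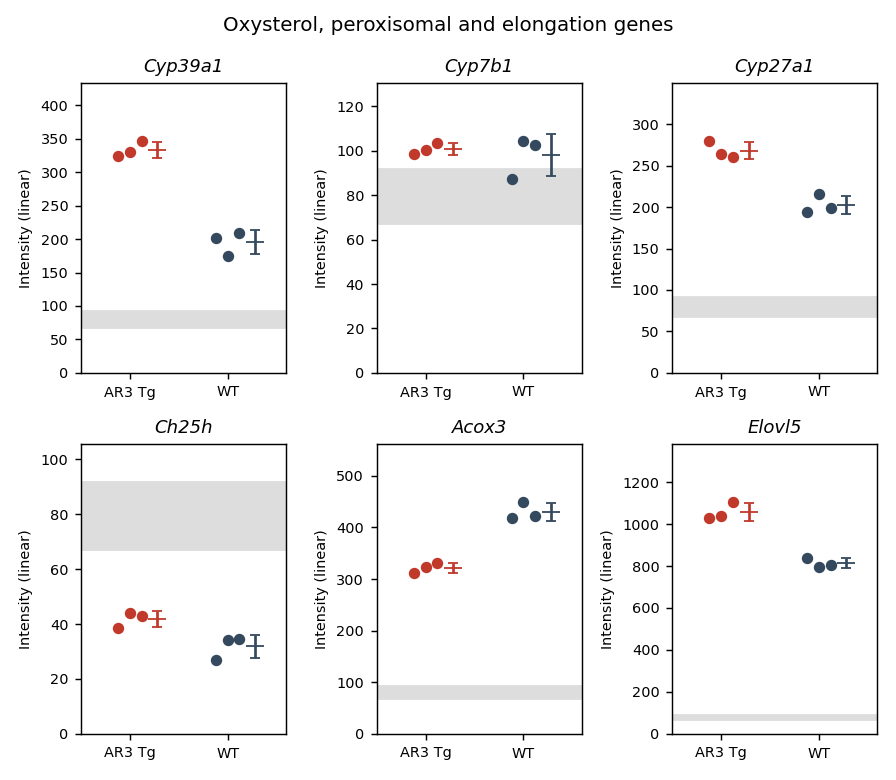
Linear array intensity of 5 genes of the surrounding pathways, with Cyp7b1 for comparison, in 3 AR3 transgenic (AR3 Tg, red) and 3 wild-type (WT, dark) prostates, with mean and SD beside the points and the background scale in grey. Cyp39a1 lay at 324.4 to 347.0 in transgenic and 175.3 to 208.8 in wild-type mice.

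The dolichol and N-glycan precursor list, the pathway of Srd5a3, held 20 measured genes, none of them called. Mpdu1, which helps use dolichol-linked mannose, had 0.29 ± 0.09 on the log2 scale (adjusted p 0.26), and the glycosyltransferase subunit Alg13 had -0.18 ± 0.07 (adjusted p 0.36), at intensities under the background scale on all 6 arrays. The list's median log2 change was -0.07. Of its 20 changes 6 were positive, and 5 with median centring, against 53.9% and 42.5% of all genes.

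The 14 lipid droplet genes, set beside Hsd17b11 for its place in the cell, had a median log2 change of 0.15 and none was called. All 14 changes were positive, and 13 with median centring. Over all genes 53.9% were positive, and 42.5% with median centring. The largest were those of Fitm1, which acts in droplet formation, at 0.45 ± 0.14 (adjusted p 0.26), and of the perilipin Plin5, at 0.43 ± 0.12 (adjusted p 0.19). Plin5 had 97.5, 108.9 and 129.0 in transgenic mice, against 69.3, 76.9 and 89.0 in wild-type mice. Plin5 and Fitm1 were each above the background scale on 4 of 6 arrays.

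Among 16 measured genes of steroid synthesis none was called, and 12 had means under the background scale. Those 12 included Star, Cyp11a1 and Cyp17a1, the defining genes of cells that make steroids from cholesterol, which were singled out after their values were seen. Star had 30.0, 38.6 and 34.7 in transgenic mice, against 35.8, 39.7 and 40.4 in wild-type mice. Its log2 change was -0.12 ± 0.09 (limma, adjusted p 0.66). The changes of Cyp11a1 and Cyp17a1 were positive, at 0.24 ± 0.11 (adjusted p 0.445) and 0.31 ± 0.14 (adjusted p 0.446). The genotypes overlapped for all of these genes. Cyp17a1 had 90.2 in transgenic mouse 2, above the background scale of that array, 78.4. The smallest p in this list were those of Cyp21a1, the steroid 21-hydroxylase, at 0.42 ± 0.11 on the log2 scale (adjusted p 0.17), and of the electron carrier Fdx1, at 0.19 ± 0.07 (adjusted p 0.35). Cyp21a1 is also among the 12 and was above the background scale on 1 of 6 arrays.

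The other 17β-dehydrogenases and their relatives, 9 measured, held no call. Hsd17b7, which also acts in cholesterol synthesis, had 111.7, 109.8 and 101.4 in transgenic mice, against 122.2, 119.8 and 133.8 in wild-type mice, a log2 change of -0.19 ± 0.08 (adjusted p 0.38). The related gene Hsdl2 had -0.15 ± 0.07 (adjusted p 0.44). Hsd17b13, which encodes a lipid droplet protein and is the neighbour of Hsd17b11 in the RefSeq gene order, had a log2 change of 0.20 ± 0.09 (adjusted p 0.44). Hsd17b13 was singled out after its values were seen.

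No call was made among 17 further aldo-keto reductases and hydroxysteroid enzymes, of which 10 had means under the background scale. Akr1c12 had -0.21 ± 0.08 on the log2 scale (adjusted p 0.37) and Akr1c21, a mouse dehydrogenase of 3α- and 17α-hydroxysteroids, had 0.26 ± 0.13 (adjusted p 0.46), the second of them under the background scale on all 6 arrays. Of 5 steroid receptor genes none was called, the smallest p being those of the estrogen receptor Esr2, at -0.23 ± 0.13 (adjusted p 0.55), and the progesterone receptor Pgr, at 0.16 ± 0.10 (adjusted p 0.58). Esr2 was above the background scale on 3 of 6 arrays and Pgr on 0 of 6.

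**Figure D4:**
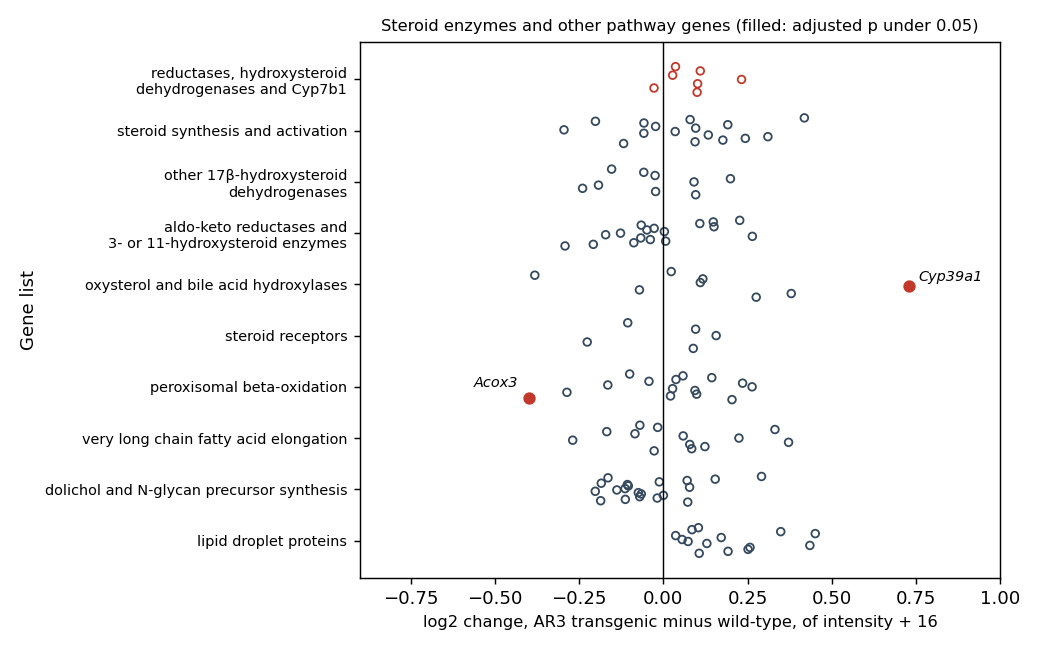
Log2 change of intensity + 16, transgenic minus wild-type, for the 7 enzymes (top, red) and the measured genes of 9 surrounding lists, 1 circle per gene, filled where the adjusted p was under 0.05. The filled genes are Cyp39a1 at 0.73 and Acox3 at -0.40.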

How the data were processed

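Total RNA from dissected prostates was labelled with a whole-transcript kit for Affymetrix arrays, per the labels' protocols. The deposited table held 35512 probe sets with 1 intensity each per array, on a linear scale (0.87 to 21952), as read from the values. How the authors summarised and normalized these intensities is not stated in the sources used here. The 95th percentile of the tested probe sets lay between 1382 and 1413 on the 6 arrays and the 75th between 282.7 and 298.2, while medians ranged more widely. No further normalization was applied in the main analysis.

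Of these, 6568 with identifiers lower than those of gene-level probe sets were left out as controls, from knowledge of the platform, which left 28944. Symbols came from the platform annotation: 21789 probe sets had 1 symbol, 1621 several and 5534 none here. A gene with several probe sets was represented by its brightest one on average.

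Log2(intensity + 16) was fitted over all 28944 probe sets with limma 3.58.1 (R 4.3.3), with genotype as the only term and 3 arrays in each. Tests were two-sided, p-values were adjusted by Benjamini-Hochberg over the whole table, and 0.05 was the threshold. The fit was tested on simulated data with changes larger than any of the enzymes or pathway genes. That test does not show how often changes of their size are called. The labels name separate mice. Mouse numbers were not taken to pair the samples. No array batch or scan date was used here. The number of arrays limits the precision.

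The enzymes and lists were chosen with earlier results of these data known. Named were all enzymes and, of each list, every gene past the threshold or else the 2 with the smallest p, and the 3 genes most like the enzyme with the smallest p. Marker genes and genomic neighbours apart, the text says where others were singled out. Alternatives changed the added constant, normalization, filter, variance model, array weights, replicate block and the arrays used.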

Additional observations from a re-analysis of the deposited data

How the results depend on the processing

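The count of called enzymes was 0 in each of the 15 alternatives, over 5 enzymes without the dimmest 40% of probe sets, which left out Hsd17b2 and Akr1c14, and over 7 in the others. Signs turned for 3 enzymes, with no call on either side. Hsd17b2 had a log2 change of 0.0273 with array weights, and between -0.115 and 0.0698 without any 1 array. Hsd17b12 had -0.0104 with median centring, and between -0.0228 and 0.0808 without any 1 array. Cyp7b1 had -0.00252 with quantile normalization, -0.00205 with median centring, -0.0167 with array weights, between -0.0344 and 0.0767 without any 1 array, and -0.0509 without wild-type replicate 1 and transgenic replicate 3. Leaving out those 2 arrays together was chosen after seeing the data.

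Of the other pathway genes, 2 were called; the count was 1 with an added constant of 1, 4 with an added constant of 64, 4 without the dimmest probe sets, 4 with an intensity trend and robust variances, 6 with array weights and 1 with mouse number as replicate block. Leaving out 1 array gave 1 in each of the 6 cases, and leaving out wild-type replicate 1 and transgenic replicate 3 gave 0; fewer arrays entered these fits. The cause of the other moves was not tested. Same-numbered mice correlated at -0.04, 0.05 and -0.16 in their deviations from the genotype means, so the numbers were not taken as pairs. With 3 arrays per genotype such correlations cannot exclude pairing. The block moved the calls over all probe sets to 250, against 425 without it. No transgenic mouse correlated best with the wild-type mouse of its own number. Wild-type mouse 2 correlated best with transgenic mouse 2, and wild-type mice 1 and 3 did not correlate best with their own numbers. Each of the 7 enzymes had 1 probe set with its symbol alone, so no other probe set could be tried. Dim signal limits Hsd17b2 and Akr1c14, which lay under the background scale on all 6 arrays.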
